A study of Mus musculus with 6 samples.

Results

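The Notch pathway genes described here are the receptors Notch1 and Notch2, the DNA-binding factor Rbpj, the co-activators Maml1 and Maml2, and the pathway-responsive genes Hes1, Dtx1 and Nrarp. The members are all 47 rows of the deposited peak table whose nearest gene is one of these 8 genes, out of 51775 peaks in all. The assay was ATAC-seq, which reads chromatin accessibility from where a transposase can insert adapters, and the cells were splenic natural killer (NK) cells of C57BL6 mice. One group was wildtype and the other Rroid deficient, that is, lacking Rroid, a long noncoding RNA, with 3 libraries each from 50000 cells per genotype, transposed in triplicate. The cells were sorted as NK1.1-positive, NKp46-positive cells without CD3 or CD5. The labels give neither age nor sex nor the number of animals, nor how the Rroid allele was made, and they do not say whether libraries of 1 genotype came from separate animals, so the spread behind each p-value is that among these libraries and may be technical.

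Notch receptors are cleaved when a ligand of the Jagged or Delta-like family on a neighbouring cell binds them. The freed intracellular part enters the nucleus, joins RBPJ on DNA and recruits a Mastermind-like (MAML) co-activator, which turns on genes such as Hes1. In lymphocytes the pathway is best known for T-lineage commitment, for marginal zone B cells and for a part in innate lymphoid cell development. Peaks were assigned to the nearest start site by the authors' annotation, so a gene's name here marks a place and not a regulated gene.

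The 250 bases before the start site are shown for the genes whose start-site or neighbouring peaks carry the results: Dtx1, whose peaks all rose, Nrarp, whose distal peaks fell beside a start-site peak with no call, Rbpj, the factor that binds the pathway's sites, and Hes5, another pathway target with a rising start-site peak. Sequences are from RefSeq (GRCm38.p6), and the table used here held windows for 7 of the 8 members, Hes1 not among them. Capitals mark TGGGAA on either strand (TTCCCA in the printed strand), the core of the RBPJ site, and CANNTG, the E-box of E proteins. No TGGGAA match overlapped a CANNTG match. The positions are chr5:120711670-120711919 (minus strand) for Dtx1, chr2:25180508-25180757 (plus) for Nrarp, chr5:53590096-53590345 (plus) for Rbpj and chr4:154960673-154960922 (plus) for Hes5.
Dtx1: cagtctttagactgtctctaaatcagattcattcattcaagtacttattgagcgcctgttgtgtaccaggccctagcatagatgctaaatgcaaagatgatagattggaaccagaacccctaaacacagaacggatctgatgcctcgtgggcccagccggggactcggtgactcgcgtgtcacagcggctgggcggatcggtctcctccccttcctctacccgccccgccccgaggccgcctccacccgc
Nrarp: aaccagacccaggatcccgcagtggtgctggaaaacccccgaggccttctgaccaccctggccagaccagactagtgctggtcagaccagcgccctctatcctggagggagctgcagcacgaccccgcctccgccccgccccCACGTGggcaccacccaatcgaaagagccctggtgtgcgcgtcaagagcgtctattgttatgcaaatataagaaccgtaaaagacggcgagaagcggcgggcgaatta
Rbpj: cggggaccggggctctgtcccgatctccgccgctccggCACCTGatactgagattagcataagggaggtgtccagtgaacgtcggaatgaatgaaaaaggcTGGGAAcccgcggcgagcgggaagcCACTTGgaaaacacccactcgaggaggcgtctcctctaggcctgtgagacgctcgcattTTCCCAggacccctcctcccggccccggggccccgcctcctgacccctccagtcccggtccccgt
Hes5: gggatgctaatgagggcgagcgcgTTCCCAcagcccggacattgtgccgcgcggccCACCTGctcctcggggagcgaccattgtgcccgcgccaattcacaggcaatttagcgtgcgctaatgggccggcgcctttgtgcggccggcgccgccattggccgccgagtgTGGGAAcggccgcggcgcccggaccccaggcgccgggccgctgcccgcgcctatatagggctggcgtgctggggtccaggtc

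TGGGAA stood 2 times in the Rbpj window and 2 times in the Hes5 window, in Hes5 as the longer GTGGGAA on opposite strands. It stood in 3 of the 9 member windows, which include overlapping windows of Rbpj, and in 21.6% of all 32851 promoter windows of that length in the RefSeq table. GTGGGAA stood in 0 of the 9 member windows and in 5.42% of all windows. CANNTG was found in 4 of the 9 member windows and in 66.2% of all. The Dtx1 window held neither motif and the Nrarp window held 1 CANNTG. A match in these letters is a description and not a bound site.

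Values are normalized reads per peak, that is, reads divided by 1 factor per library, and are given for wildtype libraries 1, 2 and 3 and then for Rroid-deficient libraries 4, 5 and 6, as the column names end. Coordinates of peaks are mm9. Reads in peaks ranged from 39847736 to 47939665 in wildtype and from 27572006 to 41167610 in Rroid-deficient libraries. The 11 peaks nearest Gm17746 on chromosome 12 (26000744 to 26079794) that kept under 5% of their wildtype signal summed to 4768 ± 717 in wildtype and 44.3 ± 5.63 in Rroid-deficient cells (SD, n = 3 each); they were chosen for that loss, so this is a description. Of the NK markers, 5 of 6 had a start-site peak, with 2 of them lower and 0 higher. Of all 42 peaks nearest these 6 genes 15 were lower and 4 higher, while over the whole series 12.1% of peaks were lower and 13.8% higher. Of 6 T-cell markers only Cd3g and Cd5 had one, and their summed signal was 96.7 to 174 in wildtype and 432 to 516 in Rroid-deficient libraries. Both were called higher. At Cd5 the groups overlapped, with 118.4, 43.7 and 31.3 in wildtype and 118.0, 131 and 141 in Rroid-deficient libraries. Cd3e, Cd3d, Cd4 and Cd8a had no peak within 1 kb of the start. Of all 9 peaks nearest the 6 T-cell genes, 3 were higher and 1 lower. Of 4 B-cell markers 0 had a start-site peak, and of 4 myeloid markers 1 had one, at 251 to 314 and 246 to 293. Of 4 markers of ILC2 and ILC3, the other innate lymphoid cells, 2 had one, summed at 5642 to 6144 and 5727 to 5793. Whether the NK or T-cell marker signal has a part in the results below was not tested.

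Most called peaks, 10 of 14, belonged to Dtx1 and Nrarp, and their main directions were opposite. All 5 Dtx1 peaks rose, and 4 of 10 Nrarp peaks fell, 3 of them in 1 stretch upstream of the gene. Of the 47 peaks, 8 rose and 6 fell, while 33 had no call (limma on log2 of the value plus 1, Benjamini-Hochberg over all peaks, adjusted p under 0.05). Over all peaks 13.8% rose and 12.1% fell, 25.8% together, against 17.0%, 12.8% and 29.8% of the Notch pathway peaks, so the totals were near the background. Scaled to total reads instead, 8229 of all peaks were called higher and 4944 lower, against 7126 and 6257, and of the 47 peaks 9 and 5. The median log2 fold change was 0.01 over the 47 peaks and -0.01 over all peaks. The groups did not overlap at 21 of the 47 peaks, 11 higher and 10 lower, against 40.1% of all peaks (20.0% higher, 20.1% lower). On the recovered reads, edgeR and DESeq2 each called 8 of the 47 higher and 6 lower, with 25.7% and 25.4% of all peaks called in either direction.

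**Figure D1:**
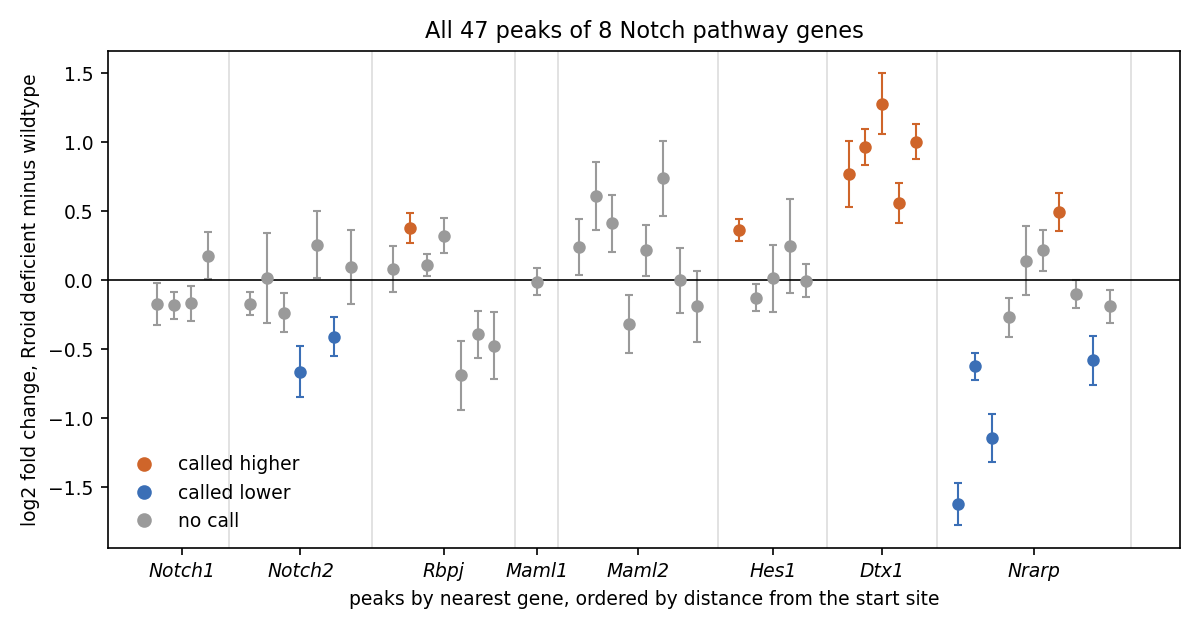
Log2 fold change (Rroid deficient minus wildtype, y axis) with its standard error for each of the 47 peaks, grouped by nearest gene and ordered by distance from the start site. Orange points are the 8 peaks called higher, blue points the 6 called lower and grey points the 33 without a call; the Dtx1 peaks are all orange and the lowest points belong to Nrarp.

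At the receptors Notch1 and Notch2, no peak rose. Notch1, the receptor of T-lineage commitment, had 4 peaks, and 0 of them passed the test. Its start-site peak (chromosome 2, 26357757 to 26359899, intron 1) held 2707, 2807 and 2441 normalized reads in wildtype and 2042, 2562 and 2430 in Rroid-deficient libraries. The groups overlapped there, and the log2 fold change was -0.18 (SE 0.10, adjusted p = 0.183, limma). The other 3 peaks, in intron 2 and 30.7 kb upstream of the start, had log2 fold changes from -0.17 to 0.18, with adjusted p from 0.357 to 0.479.

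Notch2, the receptor used by marginal zone B cells, had 7 peaks, of which 2 fell. Both lie in introns. The peak 32946 bp into the gene (chromosome 3, 97849972 to 97850842, intron 1) held 159, 142 and 168 in wildtype and 101, 97.1 and 96.7 in Rroid-deficient libraries. Every Rroid-deficient library was below every wildtype library, and the fall was to 62.8% of wildtype (log2 fold change -0.66, SE 0.18, adjusted p = 0.0135, limma). The call was lost without wildtype library 3 and without libraries 4 and 6 (highest adjusted p = 0.108). At 49687 bp (97866242 to 97868054, intron 2) the values were 349.9, 351 and 308 against 265, 230.4 and 265. That fall, to 75.4% (log2 fold change -0.41, SE 0.14, adjusted p = 0.0416), lost its call when any 1 library but wildtype library 3 was left out, and on scaling to total reads (highest adjusted p = 0.143). The Notch2 start-site peak (97816920 to 97818306, first exon) held 2253, 2237 and 2394 in wildtype and 1963, 2092 and 2069 in Rroid-deficient libraries. These groups did not overlap, yet the peak had no call (log2 fold change -0.17, SE 0.08, adjusted p = 0.152). Summed over the 7 peaks, Notch2 was at 3275 ± 62.3 in wildtype and 2852 ± 34.0 in Rroid-deficient cells (SD, n = 3 each), without overlap.

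Rbpj, which encodes the DNA-binding protein on which the active Notch complex assembles, had 7 peaks with 1 rise. The distal peak 64899 bp upstream (chromosome 5, 53881579 to 53882660, intergenic) held 597, 623 and 572 in wildtype and 801, 802 and 728 in Rroid-deficient libraries. All Rroid-deficient values were higher, 1.30-fold on average (log2 fold change 0.38, SE 0.11, adjusted p = 0.0158, limma). The call was lost without library 4 and without libraries 4 and 6 (highest adjusted p = 0.117). At the Rbpj start-site peak (53979955 to 53982656, promoter) the values were 3324, 3350 and 3269 against 3697, 3745 and 3338. Libraries 4 and 5 were above wildtype and library 6 within its range, with no call (log2 fold change 0.11, SE 0.08, adjusted p = 0.312). After cyclic loess scaling the start-site peak was called higher (log2 fold change 0.20, adjusted p = 0.0337, limma). The intron peak 8230 bp from a start site (53989641 to 53990270) had groups that did not overlap, 90.8, 69.7 and 93.8 against 58.3, 43.8 and 54.4. Its log2 fold change of -0.69 (SE 0.25) was the largest in size of the gene's 7 peaks but missed the threshold (adjusted p = 0.0519). With DESeq2 size factors it was called lower (adjusted p = 0.0494, limma), as it was after cyclic loess scaling (adjusted p = 0.0112, limma). The Rbpj peaks 53957570 to 53958588 and 53985432 to 53986043, without a call in the main test, were each called under 2 of the 16 alternatives. The intron peak at 8230 bp is thus close to the threshold. This is a low peak, with 44 reads in its shallowest library, where counting error alone is 15.1%.

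The co-activators Maml1 and Maml2 had no called peak. Maml1 had 1 peak in the table, at its start site (chromosome 11, 50104905 to 50106485, first exon). It held 3556, 4317 and 3412 in wildtype and 3400.2, 4037 and 3746 in Rroid-deficient libraries, and the groups overlapped. The log2 fold change was -0.01 (SE 0.10, adjusted p = 0.958, limma), and its sign changed under other scalings.

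Maml2 had 8 peaks, all low, with means between 70.7 and 148 normalized reads against a median of 195 over all peaks. None passed the test, with the smallest adjusted p at 0.0537. The peak nearest a start site, 750 bp before that of the shorter transcript (chromosome 9, 13465838 to 13466471), held 82.8, 63.0 and 84.0 against 66.3, 81.9 and 81.0. The start site of the other annotated transcript had its nearest peak 5973 bp upstream (13418087 to 13418834), with 89.9, 43.7 and 48.8 in wildtype and 91.5, 97.1 and 103 in Rroid-deficient libraries. Wildtype library 1 stood near the Rroid-deficient values there (log2 fold change 0.74, SE 0.27, adjusted p = 0.0537). Without it the peak was called higher (log2 fold change 1.05, adjusted p = 0.00632), and with DESeq2 size factors it passed narrowly (adjusted p = 0.0494). The peak 56181 bp upstream (13367851 to 13368654) held 49.0, 70.6 and 48.8 against 86.2, 92.3 and 77.4 (adjusted p = 0.0785). Summed over the 8 peaks Maml2 was at 736, 686 and 739 in wildtype and 882, 788 and 822 in Rroid-deficient libraries. Among all peaks below the median height, libraries 4 and 6 had median log2 deviations of 0.19 and 0.10 from the mean of the 6 libraries, and library 5 of -0.11. Libraries 4 and 6 are also the 2 shallowest. Whether this offset has a part in the Maml2 values was not tested.

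Hes1, the repressor of the Hairy and Enhancer-of-split family that is the classic Notch target, rose at its start site. That peak (chromosome 16, 30063517 to 30067391, promoter) is 3875 bp long and spans the start from 1926 bp before to 1948 bp after it. It held 4739, 4794 and 4688 normalized reads in wildtype and 5689, 6854 and 5838 in Rroid-deficient libraries. The wildtype libraries were close together, and all Rroid-deficient libraries were above them, library 5 the most. That is a rise of 1.29-fold in the mean (log2 fold change 0.37, SE 0.08, adjusted p = 0.00301, limma), and it was called under each of the 16 alternatives, with log2 fold changes from 0.28 to 0.53. The next peak, 5166 bp downstream (30069928 to 30071290, intergenic), did not share it, with 1852, 1895 and 1849 against 1567, 1981 and 1610.4 and an adjusted p of 0.381. The other 3 Hes1 peaks, 66.6 to 79.8 kb downstream, had log2 fold changes from -0.0013 to 0.25 and no call.

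Per kb of peak length, the start-site peaks of 6 of the 8 genes stood well above those of Dtx1 and Maml2 in wildtype cells. They ran from 2379 ± 307 normalized reads per kb at Maml1 through 1994 ± 280 at Nrarp, 1654 ± 62.3 at Notch2, 1237 ± 88.3 at Notch1 and 1227 ± 15.2 at Rbpj to 1223 ± 13.6 at Hes1 (SD, n = 3 each). Values of Maml1 and Nrarp overlapped, as did those of Notch1, Rbpj and Hes1. Dtx1 followed at 207 ± 33.6 and Maml2 at 121 ± 18.6, the values of each below all those before it. In Rroid-deficient cells Hes1 stood at 1581 ± 164, next to Notch2 at 1472 ± 49.8, and Dtx1 at 402 ± 29.8. Dtx1 and Hes1 were the only start-site peaks of the 8 with a call. Among all peaks within 1 kb of a start site, 10.4% rose and 8.73% fell.

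**Figure D2:**
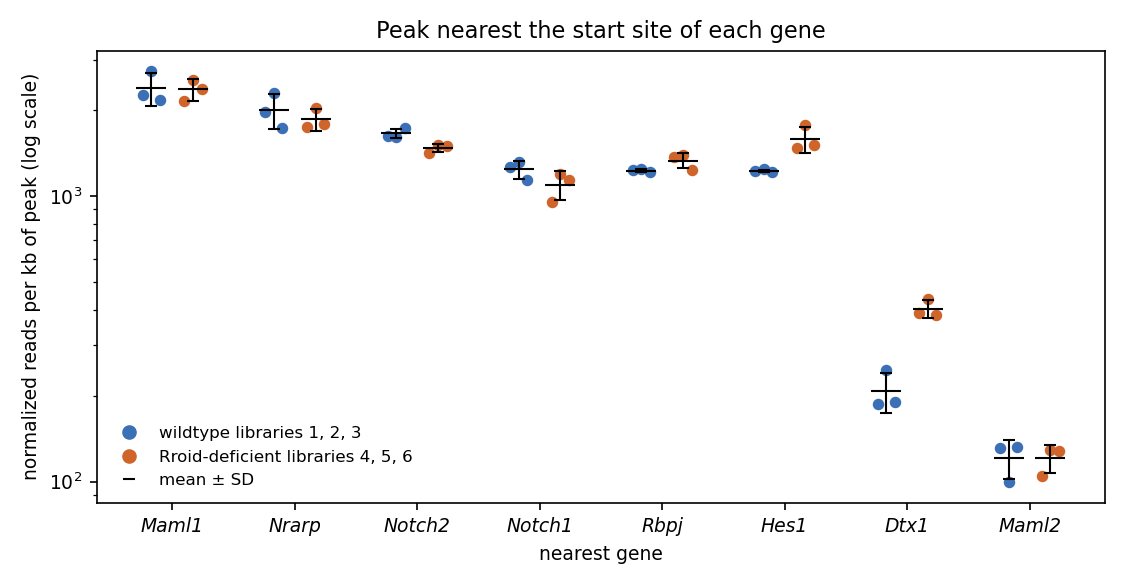
Normalized reads per kb of peak (log scale, y axis) at the peak nearest the start site of each gene (x axis), 1 point per library in blue for wildtype and orange for Rroid deficient, with mean and SD in black. The 3 Rroid-deficient points lie above the 3 wildtype points at Hes1 and Dtx1, with a call at both, and below them at Notch2, without a call.

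Dtx1, which encodes Deltex, a ubiquitin ligase that is both a Notch target and a regulator of Notch signalling, rose at all 5 of its peaks. At each of them every Rroid-deficient library was above every wildtype library, and the rises ran from 1.48-fold to 2.44-fold. The start-site peak (chromosome 5, 121160036 to 121162038, intron 1) reaches from 360 bp before to 1642 bp after the start. It held 373, 492 and 379 in wildtype and 777, 875 and 767 in Rroid-deficient libraries, a 1.94-fold rise (log2 fold change 0.97, SE 0.13, adjusted p = 3.30e-05, limma).

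The Dtx1 peaks inside the gene rose as well. The intron 3 peak at 25708 bp (121135508 to 121136432) held 294, 349 and 315 in wildtype and 574, 660 and 698 in Rroid-deficient libraries, a 2.01-fold rise (log2 fold change 1.01, SE 0.13, adjusted p = 2.08e-05). Its neighbour at 23066 bp (121138258 to 121138966) went from 248, 301 and 273 to 350.1, 462 and 405 (log2 fold change 0.56, SE 0.14, adjusted p = 0.00878). The intron 2 peak at 14853 bp (121146331 to 121147319) was low in wildtype, at 70.3, 52.9 and 50.8, and stood at 134, 135 and 155 in Rroid-deficient libraries, the largest rise of the 47 peaks (2.44-fold, log2 fold change 1.28, SE 0.22, adjusted p = 0.000359). These 4 peaks were called under each of the 16 alternatives.

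The fifth Dtx1 peak, 2822 bp upstream of the start (121164235 to 121164765, intergenic), held 88.2, 82.3 and 75.2 in wildtype and 102, 132 and 204 in Rroid-deficient libraries. The Rroid-deficient libraries spread widely, with library 6 far above library 4 (log2 fold change 0.77, SE 0.24, adjusted p = 0.0245), and the call was lost without libraries 4 and 6, without library 6 alone and without wildtype library 2 or 3 (highest adjusted p = 0.189). Beyond the 3' end of Dtx1, the nearest 2 peaks, annotated to Rasal1, also rose (chromosome 5, 121129508 to 121130600 from 122 ± 24.8 to 240.3 ± 41.0, and 121127443 to 121128154 from 164 ± 40.3 to 284 ± 41.9, SD, n = 3 each). The next Rasal1 peak outward (121123581 to 121124097) had no call, at 82.0 ± 6.48 in wildtype and 119 ± 9.17 in Rroid-deficient cells (adjusted p = 0.0642, limma). On the other side of Dtx1 the next 3 peaks, annotated to Oas2 and Oas3, had no call. These neighbours were picked by position. Summed over its 5 peaks Dtx1 was at 1149 ± 112 in wildtype and 2143 ± 179 in Rroid-deficient cells, 1.87-fold higher. The start-site peak of the T-cell marker Cd3g moved in the same direction, from 55.2, 55.4 and 65.4 to 314, 369 and 375, although the sort kept cells without CD3, and its part in the Dtx1 result was not tested. In bulk cells, more cells of a type and more signal per cell cannot be told apart.

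**Figure D3:**
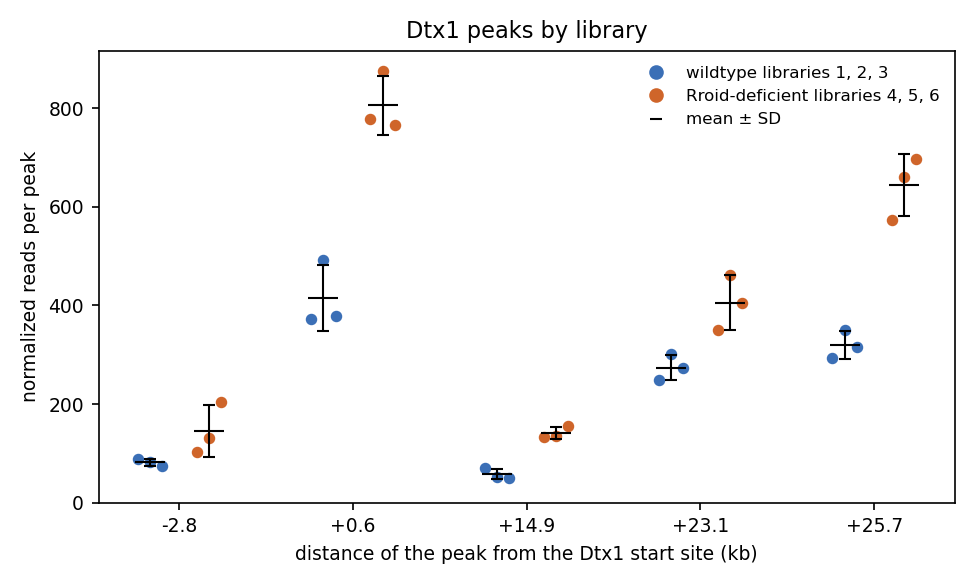
Normalized reads per peak (y axis) at the 5 Dtx1 peaks, placed by distance from the start site in kb (x axis, not to scale), with 1 point per library, wildtype in blue and Rroid deficient in orange, and mean and SD in black. At all 5 peaks the orange points lie above the blue ones, most narrowly at the upstream peak, where the Rroid-deficient values run from 102 to 204.

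Nrarp, which encodes a small ankyrin-repeat protein that is induced by Notch and dampens the RBPJ complex, had 10 peaks, with 4 falls, 1 rise and 5 without a call. The falls were far upstream and close behind the gene, and the peak at the start was not among them. The start-site peak (chromosome 2, 25035779 to 25037389, the gene's single exon) held 3170.0, 3682 and 2784 in wildtype and 2799, 3278 and 2875 in Rroid-deficient libraries (log2 fold change -0.10, SE 0.10, adjusted p = 0.503, limma).

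In the upstream stretch, the outermost peak, 38860 bp before the start (24996459 to 24998377, intergenic), held 599, 577 and 442 in wildtype and 171, 156 and 195 in Rroid-deficient libraries. It fell to 32.2% of wildtype, the deepest fall of the 47 peaks (log2 fold change -1.62, SE 0.15, adjusted p = 9.25e-07). The peak at 32939 bp (25002235 to 25004443) held 1780.0, 1858 and 1703 against 1041, 1269.9 and 1165, a fall to 65.1% at the highest of the distal Nrarp peaks (log2 fold change -0.62, SE 0.10, adjusted p = 0.000166). At 26198 bp (25009772 to 25010389) the values were 352, 297 and 241 against 129, 130.4 and 138, a fall to 44.6% (log2 fold change -1.14, SE 0.17, adjusted p = 9.80e-05). All 3 falls were called under each of the 16 alternatives. The next peak outward, annotated to Noxa1 (24984537 to 24985208), fell too, from 188 ± 11.5 to 97.1 ± 21.2 (SD, n = 3 each, adjusted p = 0.0017). The 2 peaks beyond it had no call.

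Closer to Nrarp the direction changed. The peaks between 22.5 and 12.6 kb upstream had no call, with log2 fold changes from -0.27 to 0.22. At 10236 bp upstream (25025600 to 25026484, intergenic) accessibility rose from 338, 302 and 273 to 448, 459.8 and 384, 1.41-fold (log2 fold change 0.50, SE 0.14, adjusted p = 0.0128), although not without wildtype library 3 or without libraries 4 and 6 (highest adjusted p = 0.0643). The peak at the 3' end of the gene (25038724 to 25039274) fell from 206, 265 and 219 to 137, 186 and 140.2 (log2 fold change -0.58, SE 0.18, adjusted p = 0.0232). That call was lost without wildtype library 2, without library 4, without library 6 and without both, where the adjusted p reached 0.479. Summed over all 10 peaks Nrarp was at 7887 ± 777 in wildtype and 6431 ± 468 in Rroid-deficient cells, and the groups did not overlap.

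**Figure D4:**
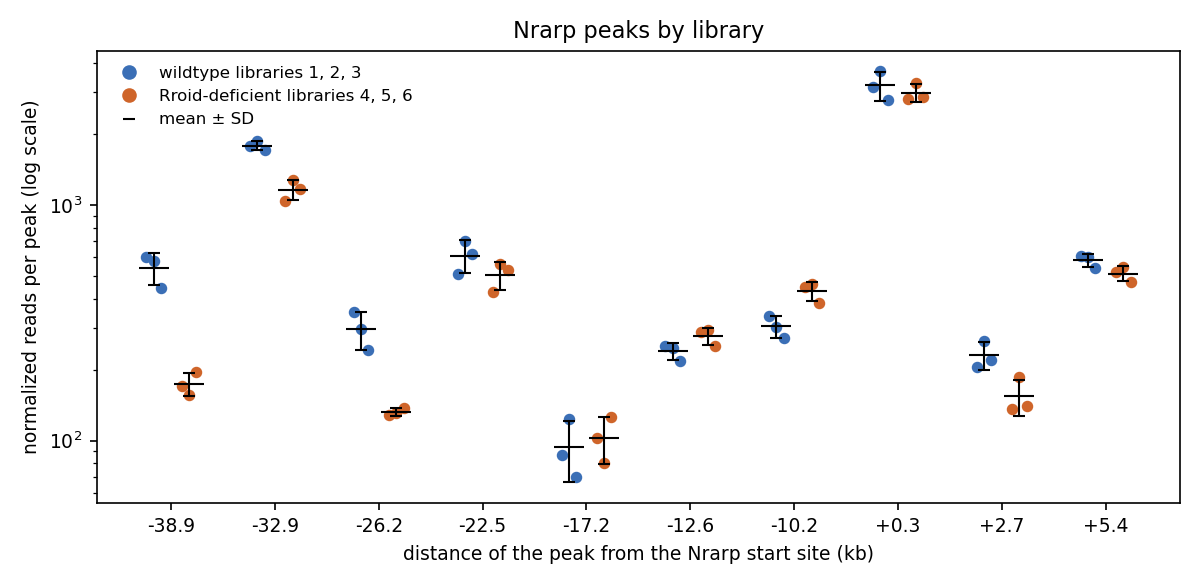
Normalized reads per peak (log scale, y axis) at the 10 Nrarp peaks, ordered by distance from the start site in kb (x axis, not to scale), with 1 point per library, wildtype in blue and Rroid deficient in orange, and mean and SD in black. The orange points lie well below the blue ones 38.9, 32.9 and 26.2 kb upstream, above them 10.2 kb upstream, and among them at the start site.

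Leaving out libraries 4 and 6, an alternative added with the values in view, left 5 rising and 3 falling peaks of the 47, which were 4 Dtx1 peaks and the Hes1 start-site peak, and the 3 upstream Nrarp peaks. It sets 1 Rroid-deficient library against 3 wildtype libraries, so the spread comes from wildtype alone and library 5 is assumed to vary likewise; wherever libraries 4 and 6 are left out, this limit applies.

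Among the other genes of the pathway, a list of 53, more peaks rose than fell. The list was chosen with earlier results of these data known, so its shares are a description. Peaks were assigned to 48 of them, 179 in all, of which 44 (24.6%) rose and 7 (3.91%) fell, while 128 had no call. Their median log2 fold change was 0.09. The background is 13.8% and 12.1%. Of the 74 peaks below the median height of all peaks 26 rose and 2 fell, and of the 105 at or above it 18 rose and 5 fell. Over all peaks 14.3% rose and 6.47% fell in the lower class, and 13.2% and 17.7% in the higher. Libraries 4 and 6 are those with raised signal at low peaks, and whether that has a part in the counts of the list was not tested. Without wildtype library 3, or without library 6, 29 rose, while 4 fell without wildtype library 2 and 17 fell without library 5.

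Ligand genes had the highest share of rising peaks of the 7 roles, 10 of 14, with 0 falling, and their log2 fold changes had a median of 0.86. Jag1, which encodes the ligand Jagged, rose at all 4 of its peaks. The peak with the smallest p lies 108 kb from its start (chromosome 2, 137049984 to 137051507, intergenic) and went from 107, 118 and 108 in wildtype to 515, 544 and 472 in Rroid-deficient libraries. This was a 4.58-fold rise (log2 fold change 2.19, adjusted p = 2.57e-08, limma). At Jag2 the start-site peak (chromosome 12, 114166572 to 114168408, intron 1) went from 271, 148 and 101 to 402, 392 and 372 (adjusted p = 0.00088). Dll1, a Delta-like ligand, rose at both its peaks, and Dlk1, a related membrane protein, at 3 of 4, while Dll3 and Dll4 had no call.

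The other receptors rose at 2 of 5 peaks, both low. The Notch3 peak in intron 19 (chromosome 17, 32283248 to 32283977) held 57.0, 30.2 and 22.5 in wildtype and 141, 110.4 and 108 in Rroid-deficient libraries (adjusted p = 0.000389). The Notch4 peak 3990 bp upstream of its start (34696756 to 34697745) held 35.6, 47.9 and 32.2 against 88.8, 63.8 and 88.3 (adjusted p = 0.0101), a call lost without library 6 (adjusted p = 0.057) and without libraries 4 and 6 (0.262). The glycosyltransferases, which modify the receptors, had 0 rising and 2 falling peaks of 16. At Rfng, the Radical fringe gene, the peak 16932 bp from its start (chromosome 11, 120628248 to 120628924, intergenic) went from 148, 129 and 103 to 54.4, 68.5 and 66.5, a fall to 49.99% (log2 fold change -0.98, adjusted p = 0.00381), which was lost without libraries 4 and 6 (adjusted p = 0.0649). At Lfng, the Lunatic fringe gene, the falling peak (chromosome 5, 141070236 to 141071396, intergenic) went from 1576, 1724 and 1479 to 1243, 1389 and 1273 (adjusted p = 0.0343). The Lfng call was lost without wildtype library 1 or 2, without library 4, without library 6 and without both (adjusted p up to 0.450).

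The proteases that process the receptors had 6 rising and 1 falling peak of 30. Adam10, which makes the first ligand-induced cut, had no call at any of its 4 peaks, and its start-site peak held 4290 ± 264 in wildtype and 4107 ± 342 in Rroid-deficient cells (SD, n = 3 each). Rises came from Furin, a convertase that cuts the receptor precursor (3 of 7 peaks), Aph1b (2 of 3) and Psen2 (1 of 6), Aph1b and Psen2 being parts of gamma-secretase. The Psen2 call was lost without wildtype library 2 or 3, without library 4, without library 6 and without both, and its log2 fold change of 0.63 (adjusted p = 0.0315) was 0.39 without wildtype library 3 (adjusted p = 0.156). Genes of the transcription complex had 7 rising and 3 falling peaks of 44. Maml3, the remaining Mastermind-like gene, rose at 3 of 12 peaks, whereas its start-site peak had no call (3340 ± 125 and 3110 ± 324). The acetyltransferase gene Kat2b fell at 2 of 8 peaks.

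Genes of receptor turnover and trafficking had 11 rising and 0 falling peaks of 35. Numbl and Numb, homologues of an inhibitor of Notch first found in Drosophila, rose at 3 of 5 and 2 of 3 peaks. The intron 7 peak of Numbl (chromosome 7, 28058955 to 28062254) held 367, 414 and 382 in wildtype and 1032, 1142 and 977 in Rroid-deficient libraries, 2.71-fold higher (log2 fold change 1.43, adjusted p = 1.29e-07, limma). Fbxw7, whose product marks the active receptor for degradation, rose at 3 of 11. Among 8 further target genes with peaks, 8 peaks of 35 rose and 1 fell. Heyl rose at 4 of 5 peaks and Hes5 at its only one (chromosome 4, 154334939 to 154336140, exon 3), from 388, 299.9 and 299 to 472, 499.8 and 453 (adjusted p = 0.00778), which was lost without libraries 4 and 6 (adjusted p = 0.0579). The start-site peaks of Myc (3520 ± 300.0 and 3458 ± 480.3) and Hey1 (2989 ± 222 and 3139 ± 112) had no call, and the falling peak belonged to Ccnd3.

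**Figure D5:**
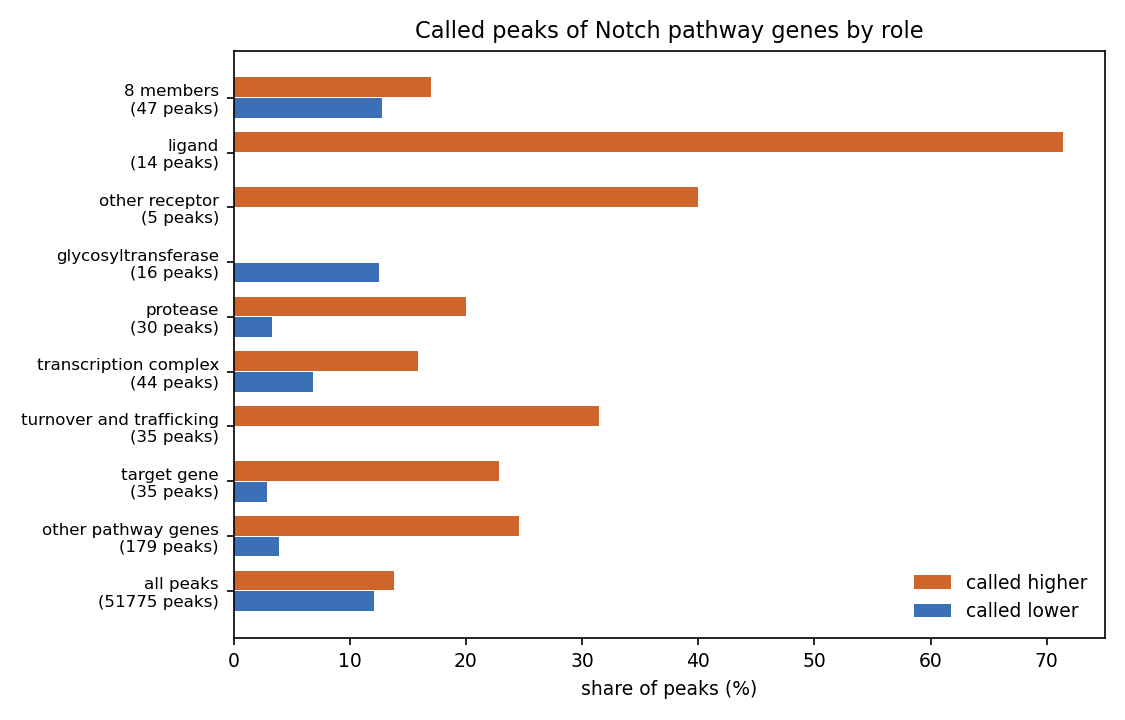
Share of peaks (%, x axis) called higher (orange) and lower (blue) for the 8 members, for each role among the other pathway genes, for those genes together and for all 51775 peaks. Ligand genes reach 71.4% higher with 0 lower, and glycosyltransferase genes show 12.5% lower with 0 higher. The members and lists were chosen with earlier results of these data known.

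As a description of likeness, the summed log2 signal of each member gene was set against that of 6655 genes outside the pathway with 3 or more peaks, over the 6 libraries. Nearest to Dtx1 were Lrba and Sec61b (Pearson's r = 0.996 and 0.995), and nearest to Nrarp were Sulf2 and Mef2a (r = 0.998 and 0.997). With 6 libraries and that many genes searched, values this close to 1 turned up for every member (0.968 or more for the 2 nearest of each).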

How the data were processed

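ATAC-seq of 6 libraries was analysed, 3 wildtype and 3 Rroid deficient. Named tools, without their roles, were BWA, Trimmomatic 0.32, bcl2fastq 2.16.0, HOMER, MACS2 2.1.0, R 3.1.1 and DiffBind, with build mm9, per the submitters' processing notes. A shift to the cut site, duplicate removal and each tool's settings are not given in the sources used here. Deposited signal values were reads per consensus peak divided by 1 factor per library by the authors; within a tolerance of 0.01 they gave whole reads for 100% of values in each library. Columns were matched to genotype by name only, since Rroid-deficient columns end in 4, 5 and 6. Depth was 27572006 to 47939665 reads in peaks per library, and the counting error of single peaks is given where it limits a value.

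The test was limma 3.58.1 (R 4.3.3) with an intensity trend on log2(value + 1), over all 51775 peaks. Log2 fold changes refer to values plus 1, so changes of low peaks are understated, while folds and percentages are ratios of group means. It was tested on simulated data. Alternatives were 3 scalings, edgeR 4.0.16 and DESeq2 1.42.0 on recovered reads, pseudocounts of 0.5 and 5, a filter (10 or more in at least 3 libraries, which removed 0 peaks), a limit of 0.01, leaving out libraries, and a 100 kb window. The members and lists were chosen with earlier results of these data known. Named were the start-site peak, the highest peak, the called peaks with a log2 fold change of 0.5 or more in size and the 2 peaks of smallest p of each member; the called Notch2, Rbpj and Hes1 peaks below that size are among these. For other pathway genes they were up to 3 called peaks per role, 1 per gene, and preset start-site peaks (nearest peak). A called peak that this rule selects is not reported here.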

Additional observations from a re-analysis of the deposited data

How the results depend on the processing

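No paired analysis was possible because the Rroid-deficient columns carry numbers that match no sample title. Of the 14 called peaks, 8 kept their call under all 16 alternatives and 0 changed sign. Of the 33 others, 6 were called under at least 1 alternative. The 16 alternatives are not independent checks. The filter removed 0 peaks, so it repeated the main fit and could not change a call. The deposited library factors matched those that edgeR computes, so edgeR changed the test and not the scaling.

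With an adjusted p limit of 0.01, 5 of the 47 peaks were called higher and 3 lower, 25 and 4 of the other pathway peaks, and 4365 and 3265 of all peaks. Without libraries 4 and 6, which leaves 1 Rroid-deficient library assumed to vary like wildtype, the counts were 5 and 3, 22 and 1, and 3728 and 3653. Leaving out 1 library at a time gave 6 to 9 higher and 4 to 6 lower of the 47 peaks, 29 to 43 and 4 to 17 of the other pathway peaks, and 5218 to 7508 and 4039 to 6304 of all peaks. The lowest counts for other pathway peaks called higher came without wildtype library 3 or library 6 (29 each); those called lower were 4 without wildtype library 2 and 17 without library 5.

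Sign changes were limited to peaks without a call. Of the 33 uncalled member peaks, 13 changed sign under at least 1 alternative. The most changes came at the Hes1 peak 79.8 kb downstream, under 8 of the 16 alternatives. Values follow for the named peaks only. Scaled to total reads, the log2 fold change was 0.050 at Maml1 and 0.029 at Myc. After loess it was 0.080 at Maml1, -0.11 at Maml2 (start site), 0.056 at Myc and 0.029 at Adam10. Without libraries 4 and 6 it was 0.11 at Maml1, 0.038 at Notch1 (5656 bp), 0.087 at Hes1 (5166 bp), 0.039 at Nrarp (start site), 0.19 at Myc, 0.049 at Maml3 and 0.060 at Adam10. With 1 library left out the start-site values spanned -0.075 to 0.094 at Maml1, -0.13 to 0.099 at Maml2, -0.20 to 0.0032 at Nrarp and -0.14 to 0.047 at Myc. The cause of these changes was not tested. Peaks with under 100 reads in a library carry counting errors above 10%, up to 20.9% at a Hes1 peak.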
